A study of Mus musculus with 18 samples.

Results

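Carfilzomib (CFZ) raised 4 genes of the small heat shock protein and BAG families at least 2-fold within 6 h in both NIH-3T3 lines, and 1 of them, Cryab, went on to rank among the most counted genes of the cells by 24 h. The genes examined were the 9 symbols of the deposited count table that make up this pair of families here: the small heat shock protein genes Hspb1, Hspb8 and Cryab and the BAG genes Bag1, Bag2, Bag3, Bag4, Bag5 and Bag6. They were chosen by name with earlier results of these data known, and all 9 were found among its 23420 rows. NIH-3T3 is an immortalized mouse fibroblast line. RNA was sequenced from wild-type (WT) cells and from an Nrf1-knockout (KO) line of the same cells, each treated with DMSO as the vehicle or with 200 nM CFZ for 6 h or 24 h, which gave 6 groups of 3 libraries. No genotype other than the Nrf1 knockout and no agent other than DMSO or CFZ is given, the time of the DMSO treatment is not given in the labels, and 1 DMSO group per line served both CFZ times. The knockout is a single line made with CRISPR/Cas9, so its genotype and any other property of that line cannot be told apart. The study describes the libraries as biological replicates.

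Small heat shock proteins are chaperones without ATPase activity that bind unfolding proteins and hold them for refolding or disposal. HSPB8 acts as the partner of BAG3, and CRYAB, the alpha B-crystallin of lens and muscle, is one of the best known stress-induced members. BAG proteins are named for a BAG domain, which in several of them binds the ATPase domain of Hsp70-type chaperones and releases their nucleotide. BAG1 links Hsp70 to the proteasome, BAG2 restrains the ubiquitin ligase CHIP, and BAG3 leads Hsp70 clients with HSPB8 into selective autophagy. BAG4 was described as a silencer of death receptors, BAG5 carries several BAG domains, and BAG6 forms a complex that guards tail-anchored and mislocalized membrane proteins. CFZ is an irreversible inhibitor of the proteasome, and Nrf1 (gene Nfe2l1) is a transcription factor that induces proteasome genes when the proteasome is blocked.

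Library totals ran from 8333148 to 23917081 counts with a median of 14419832, and 11762 genes passed the expression filter and were tested. Levels are given as CPM, the counts of a gene scaled to a common library total after TMM scaling, as the mean ± SD with n = 3 in every group. Fold changes are on the log2 scale with their standard error (SE), and a change was called when the adjusted p of edgeR's quasi-likelihood test, with Benjamini-Hochberg adjustment over all genes tested, was below 0.05. Nfe2l1 (chr11:96817414-96829968, minus strand) stood at 448 ± 9.87 CPM in WT DMSO and at 180 ± 5.27 CPM in KO DMSO, and the highest KO library of any treatment lay below the lowest WT library. Its level was 642 ± 12.4 and 565 ± 13.4 CPM after 6 h and 24 h of CFZ in WT cells, and 419 ± 7.19 and 204 ± 4.45 CPM in KO cells, so its transcript was lowered rather than absent. The level of Nrf1 protein cannot be read from these counts. The study reports that CFZ raised proteasome genes in WT cells and not in the KO line. The closest library to each of the 18, by correlation, was another replicate of the same group. All 10 fibroblast markers were tested. Their summed level fell from between 36502 and 39545 CPM in WT DMSO to between 8838 and 9178 CPM in WT CFZ 24 h. In the KO line it fell from between 29286 and 35590 CPM to between 11199 and 13304 CPM. Vim did not fall in that line, at 3398 ± 162 CPM in KO DMSO and 3451 ± 48.3 CPM in KO CFZ 24 h. Of the markers of other cells, 7 muscle genes summed to between 4.17 and 8.15 CPM in every library, 3 endothelial genes to at most 3.83 CPM, 3 leukocyte genes to at most 5.77 CPM with Cd3e at 0 in all, and 4 epithelial genes to between 57.8 and 151 CPM with Epcam at 0. The endothelial sum was at most 0.591 CPM before 24 h and at least 2.54 CPM at 24 h, and the leukocyte sum went at 24 h from at most 1.06 CPM to at least 2.74 CPM in WT and from at most 2.32 CPM to at least 5.56 CPM in KO cells. Cdh5 and Cd68 carried these increases, and Ptprc was at 0 in all WT libraries and between 0.719 and 1.33 CPM in the KO libraries. The epithelial sum was at least 127 CPM in WT and at most 87.2 CPM in KO libraries. Most of it was Krt14, at 142 ± 5.03 CPM in WT DMSO and 58.7 ± 1.46 CPM in KO DMSO. The part of these shifts in the results was not tested, and in bulk RNA a change in the number of cells and a change in RNA per cell cannot be told apart.

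Promoter sequences were held by the RefSeq table for 7 of the 9 genes (GRCm38.p6), and 3 are printed because they set the partners Hspb8 and Bag3, both raised at 6 h, beside the small heat shock gene that was hardly counted, Hspb1. Each is the 250 bases upstream of the annotated start, 5′ to 3′ on the gene's strand. They lie at chr5:135887669-135887918 on the plus strand for Hspb1, at chr5:116422865-116423114 on the minus strand for Hspb8 and at chr7:128523333-128523582 on the plus strand for Bag3. Capitals mark the letters of 2 adjoining units of a heat shock element, GAANNTTC or TTCNNGAA, where N is any base. Both forms read the same on either strand.
Hspb1: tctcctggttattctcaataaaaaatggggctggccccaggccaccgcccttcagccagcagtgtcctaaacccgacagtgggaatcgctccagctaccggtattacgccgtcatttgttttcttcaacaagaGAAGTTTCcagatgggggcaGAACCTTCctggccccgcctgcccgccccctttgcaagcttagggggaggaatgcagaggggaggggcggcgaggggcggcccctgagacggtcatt
Hspb8: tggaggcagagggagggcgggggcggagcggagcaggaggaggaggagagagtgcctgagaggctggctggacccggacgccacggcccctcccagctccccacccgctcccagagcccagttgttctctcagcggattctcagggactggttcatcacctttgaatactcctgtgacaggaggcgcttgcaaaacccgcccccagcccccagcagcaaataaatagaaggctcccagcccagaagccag
Bag3: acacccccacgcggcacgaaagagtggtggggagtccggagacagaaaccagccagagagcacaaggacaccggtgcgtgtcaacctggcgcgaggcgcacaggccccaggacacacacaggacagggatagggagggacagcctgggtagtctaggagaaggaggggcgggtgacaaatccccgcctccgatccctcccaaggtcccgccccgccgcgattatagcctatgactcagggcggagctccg
The Hspb1 window held 2 such stretches, GAAGTTTC ending 110 bases and GAACCTTC ending 90 bases before the start. None of the other windows of these genes held one, including those of Hspb8 and Bag3. The share over all 32851 windows in the table was 12.8%, so absence from a few windows is common. A run of 3 units, GAANNTTCNNGAA or TTCNNGAANNTTC, which contains both of the shorter forms, was in 0.466% of all windows and in no window of these genes. The core of the antioxidant response element that Nrf1 can bind, TGACNNNGC or GCNNNGTCA on the other strand, was in 10.2% of all windows, and among these genes in the Bag1 window alone, as GCAGGGTCA 22 to 14 bases before the start. Of 14 heat shock factors and textbook targets outside these families with a window, 7 held the letters of 2 units and 2 those of 3 units. These are exact matches of letters in a short window. They say nothing of elements farther away or of elements that differ from these letters.

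The first question was what CFZ does to each gene within a line. Of the 9 genes, 8 passed the expression filter and Hspb1 did not. In WT cells at 6 h, 6 of the 8 tested genes were called higher and 0 lower, while 35.6% of all tested genes were called higher and 36.2% lower. At 24 h in WT cells 7 were higher and 1, Bag5, was lower, beside 43.2% and 40.5% of all genes. In KO cells 5 were higher and 1 lower at 6 h, beside 34.5% and 35.0%, and 6 were higher and 1 lower at 24 h, beside 44.4% and 41.1%. Because so many genes passed the test, the size of a change separates the genes better than the call. A rise of at least 2-fold was seen for 4 of the 8 in WT cells at 6 h and again at 24 h, against 3.98% and 10.5% of all genes, and for 4 in KO cells at 6 h and 3 at 24 h, against 3.30% and 11.5%. The median log2 fold change of the 8 was 0.93 at 6 h and 1.06 at 24 h in WT cells and 0.77 and 0.59 in KO cells, where the medians of all genes were -0.019, 0.023, -0.0082 and 0.030. The 6 h and 24 h comparisons share their DMSO libraries. The genes were chosen with earlier results of these data known, so their counts beside all genes are a description.

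The higher and lower calls over all genes depend on the scaling. Higher calls were 49.6% of all calls in WT cells at 6 h with TMM, but 35.4% with library size alone and 37.9% with upper-quartile scaling. In KO cells the share with library size alone was 36.4% at 6 h, against 49.7%, and 41.6% at 24 h, against 52.0%, and in KO against WT cells it was 57.7% in DMSO, against 46.9%, and 60.8% at 6 h, against 49.8%. With upper-quartile scaling the median of all genes moved by -0.11 at 6 h and -0.14 at 24 h in WT cells, and by up to -0.18, in KO cells at 24 h, with library size alone, so a fold change of that order is read here only relative to the other genes. Changes of at least 2-fold in these families were larger than those shifts.

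**Figure D1:**
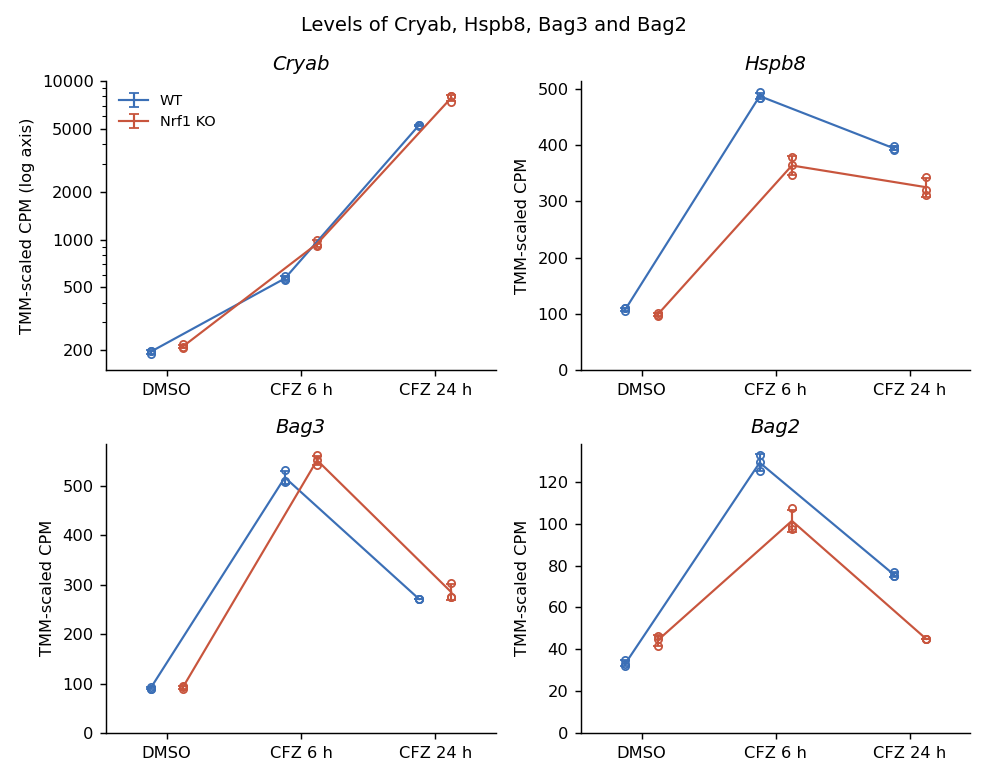
TMM-scaled CPM of Cryab, Hspb8, Bag3 and Bag2 in the 18 libraries (open circles), by treatment, with the group mean and SD (lines and bars) for WT (blue) and Nrf1 KO (red) cells. The Cryab axis is logarithmic. Cryab kept climbing to 5275 CPM in WT and 7846 CPM in KO cells at 24 h, whereas Hspb8, Bag3 and Bag2 were highest at 6 h in both lines.

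Cryab (chr9:50751325-50756636, plus strand) changed most. The WT libraries held 199, 190 and 199 CPM in DMSO, 587, 554 and 566 CPM at 6 h, and 5281, 5230 and 5314 CPM at 24 h. The KO libraries held 206, 210 and 218 CPM, then 905, 924 and 995 CPM, then 7415, 8066 and 8055 CPM. Within each line the DMSO libraries were lowest and the 24 h libraries highest, with KO above WT at each time. How often libraries of different groups keep apart over all genes was not counted, for Cryab or for the genes below. In WT cells Cryab rose 2.90-fold at 6 h (log2 fold change 1.54, SE 0.040, adjusted p = 2.9e-25) and 26.9-fold at 24 h (4.75, SE 0.044, adjusted p = 3.4e-37). In KO cells it rose 4.44-fold at 6 h (2.15, SE 0.040, adjusted p = 4.7e-29) and 37.1-fold at 24 h (5.21, SE 0.045, adjusted p = 3.4e-38). Only 46 genes in WT and 38 in KO cells had a larger log2 fold change at 24 h. Unlike Hspb8, Bag2 and Bag3, Cryab made most of its climb after 6 h, by a further 3.21 (SE 0.041) in WT and 3.06 (SE 0.040) in KO cells. By mean count it went from rank 944 to 244 to 5 in WT cells and from 807 to 95 to 6 in KO cells. At 24 h it took between 0.508% and 0.516% of the counts of a WT library and between 0.709% and 0.768% of a KO library.

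The Cryab exons overlap those of Hspb2, its neighbour on the opposite strand, over 17.04% of their bases. The libraries were made with a stranded kit, but the sources used here do not say whether strand was used in the counting. Hspb2, itself a small heat shock protein gene of muscle, held between 0 and 18 counts per library and was not tested. Its mean was 0.619 ± 0.261 CPM in WT DMSO and 0.196 ± 0.099 CPM in WT CFZ 24 h. How reads in the shared bases were assigned cannot be read from these counts, and their part in the Cryab count was not tested.

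Hspb8 (chr5:116408491-116422864, minus strand) rose fast and then held. In WT cells it was at 110, 105 and 110 CPM in DMSO, 494, 483 and 484 CPM at 6 h, and 393, 391 and 398 CPM at 24 h. In KO cells it was at 97.8, 96.7 and 102 CPM, then 347, 364 and 379 CPM, then 311, 320 and 344 CPM. At each time the KO libraries were all lower than the WT libraries. The rise at 6 h was 4.49-fold in WT (2.17, SE 0.039, adjusted p = 2e-29) and 3.67-fold in KO cells (1.88, SE 0.040, adjusted p = 1.5e-27). From 6 h to 24 h Hspb8 fell by 0.31 (SE 0.036) on the log2 scale in WT and by 0.16 (SE 0.037) in KO cells, which left it 3.64-fold and 3.29-fold above DMSO.

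Bag3 (chr7:128523616-128546981, plus strand), the partner of Hspb8, had the largest rise of the 8 at 6 h in both lines and gave up more of it. WT libraries held 92.5, 89.4 and 89.8 CPM in DMSO, 532, 511 and 509 CPM at 6 h, and 270.9, 271 and 270.9 CPM at 24 h. KO libraries held 92.7, 95.2 and 88.6 CPM, then 562, 552 and 543 CPM, then 303, 276 and 275.5 CPM. The DMSO groups of the lines overlapped, and under CFZ the KO libraries lay just above the WT libraries. The rise at 6 h was 5.71-fold in WT (2.51, SE 0.039, adjusted p = 3.7e-31) and 6.00-fold in KO cells (2.59, SE 0.039, adjusted p = 1.4e-31). At 24 h Bag3 was 2.99-fold and 3.10-fold above DMSO, after a fall of 0.93 and 0.96 on the log2 scale.

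Bag2 (chr1:33745484-33757795, minus strand) had the largest difference between the lines in the response to CFZ among the tested genes of these families. In WT cells it went from 32, 34.8 and 32.9 CPM in DMSO to 133, 129.6 and 125.02 CPM at 6 h, and to 75.2, 74.8 and 77 CPM at 24 h. In KO cells it went from 44.9, 41.4 and 46.4 CPM to 99, 97.7 and 107 CPM, and back to 45, 45.1 and 44.8 CPM. At 24 h the KO libraries lay within the range of the KO DMSO libraries, while the WT libraries were well above theirs. WT Bag2 was 3.89-fold higher at 6 h (1.96, SE 0.046, adjusted p = 2.3e-26) and 2.28-fold higher at 24 h (1.19, SE 0.049, adjusted p = 2.2e-20). KO Bag2 was 2.27-fold higher at 6 h (1.18, SE 0.046, adjusted p = 2.2e-20), and at 24 h its log2 fold change was 0.016 (SE 0.049, adjusted p = 0.76). That last value took either sign depending on the scaling, and with library size alone it was -0.17 (adjusted p = 0.0025).

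**Figure D2:**
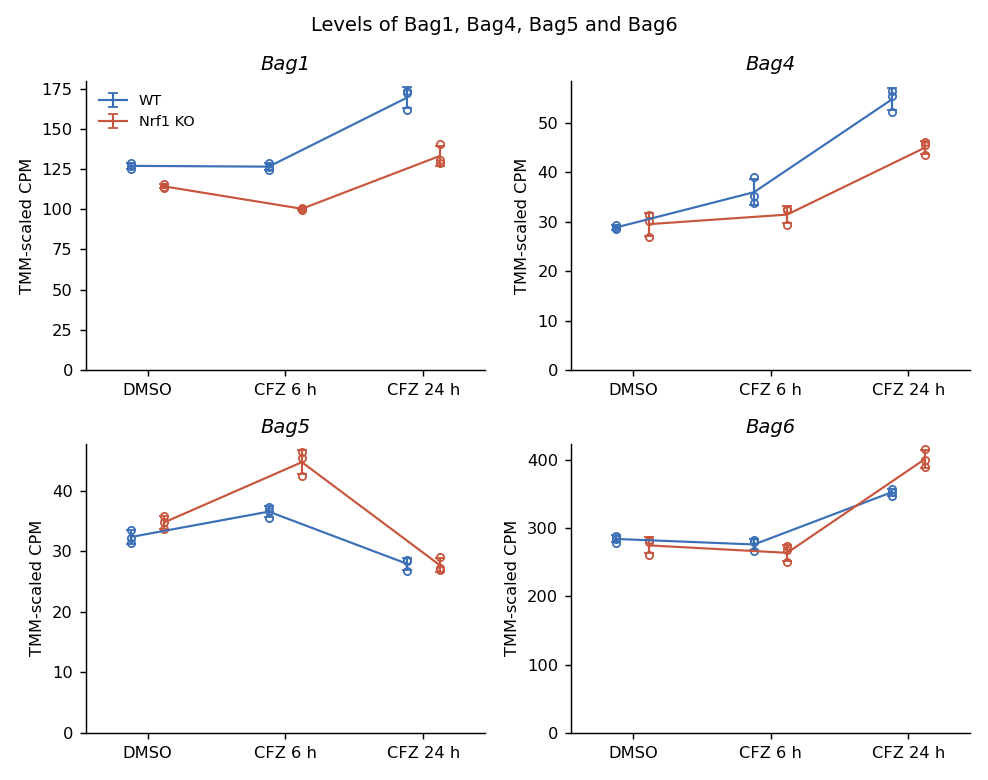
TMM-scaled CPM of Bag1, Bag4, Bag5 and Bag6 in the 18 libraries (open circles), by treatment, with the group mean and SD for WT (blue) and Nrf1 KO (red) cells. Bag1, Bag4 and Bag6 were highest at 24 h and Bag5 was highest at 6 h in both lines, with group means that spanned between 1.52-fold and 1.89-fold.

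Bag1, Bag4, Bag5 and Bag6 changed less than 2-fold, and 3 of them changed late. Bag4 (chr8:25764538-25785287, minus strand) rose from 28.9 ± 0.425 CPM in WT DMSO to 36.0 ± 2.68 CPM at 6 h and 54.7 ± 2.21 CPM at 24 h. In KO cells it was at 29.5 ± 2.32, 31.4 ± 1.76 and 44.99 ± 1.38 CPM. Its log2 fold change at 24 h was 0.93 (SE 0.057, adjusted p = 6.1e-16) in WT and 0.62 (SE 0.057, adjusted p = 1.1e-11) in KO cells, and at 6 h 0.32 (SE 0.062, adjusted p = 3.3e-05) and 0.10 (SE 0.065, adjusted p = 0.16). The KO 6 h libraries overlapped those in DMSO. The exons of Bag4 overlap those of Gm17484, a noncoding gene on the opposite strand, over 14.82% of their bases, and those of Bag2 overlap Gm37905, also on the opposite strand, over 4.28%. Neither neighbour was analysed here, and as for Cryab the use of strand in the counting is not given.

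Bag1 (chr4:40936398-40948294, minus strand) was at 127 ± 1.96, 126.5 ± 1.96 and 169 ± 6.61 CPM in WT cells and at 114 ± 1.26, 100.3 ± 0.633 and 133 ± 6.36 CPM in KO cells. It did not move past the test in WT cells at 6 h (-0.0050, SE 0.037, adjusted p = 0.91), fell by 0.19 (SE 0.039, adjusted p = 8.3e-05) in KO cells at 6 h, and stood 0.42 (SE 0.036) above DMSO in WT and 0.22 (SE 0.036) in KO cells at 24 h. With library size alone the WT 6 h value was -0.14 (adjusted p = 0.0011) and with upper-quartile scaling -0.11 (adjusted p = 0.0071), and the KO 24 h value was 0.039 (adjusted p = 0.31) with library size alone. A fall of Bag1 in WT cells at 6 h thus rests on the scaling, while its rise in WT cells at 24 h was called under each scaling tried.

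Bag6 (chr17:35135178-35147322, plus strand) was the most counted BAG gene in DMSO, at 284 ± 5.10 CPM in WT and 275 ± 11.6 CPM in KO cells. At 6 h it was at 276 ± 8.06 and 264 ± 11.9 CPM, with libraries that overlapped those in DMSO in both lines, and at 24 h at 353 ± 5.08 and 401 ± 13.3 CPM. The log2 fold change at 24 h was 0.31 (SE 0.037, adjusted p = 3.9e-09) in WT and 0.55 (SE 0.037, adjusted p = 5.2e-15) in KO cells. At 6 h it was -0.041 (adjusted p = 0.33) and -0.054 (adjusted p = 0.21), which became calls of -0.17 in each line with library size alone (adjusted p = 0.00013 and 0.00028) and of -0.15 and -0.13 with upper-quartile scaling. The KO value also passed with no expression filter (-0.10, adjusted p = 0.017) or without KO DMSO replicate 3 (-0.092, adjusted p = 0.045).

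Bag5 (chr12:111709488-111713257, minus strand) alone went up and then below its start. It was at 32.4 ± 1.10, 36.6 ± 0.946 and 28.0 ± 1.001 CPM in WT cells and at 34.8 ± 1.06, 44.8 ± 2.04 and 27.7 ± 1.21 CPM in KO cells. The 6 h rise was 0.18 (SE 0.053, adjusted p = 0.0032) in WT and 0.36 (SE 0.051, adjusted p = 2.8e-07) in KO cells, and the 24 h value was -0.21 (SE 0.055, adjusted p = 0.00082) and -0.33 (SE 0.052, adjusted p = 9.6e-07). The WT 6 h rise did not pass with upper-quartile scaling (0.070, adjusted p = 0.24) or library size alone (0.047, adjusted p = 0.44).

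Hspb1 (chr5:135887919-135889563, plus strand), the gene of the heat shock protein known as HSP25 in the mouse, had 9 counts in all 18 libraries together, and no library held more than 2. All WT and KO DMSO libraries held 0, which allows at most 3 counts in each, or 0.177 CPM in the second WT DMSO library. With the filter removed, its adjusted p over the 11 comparisons lay between 0.0646 and 1, and the lowest was for KO cells at 24 h against DMSO, where the 3 CFZ libraries held 1, 2 and 1 counts. No fold is given, since both groups are under the floor of 3 counts per library. No change of Hspb1 was called. Of its 1030 transcript stretches of the length of a read, 41.55% also occur in the processed pseudogene Hsp25-ps1 (chr13:45078498-45079127). A read in such a stretch has 2 places to go, and the part of this in the low count was not tested. None of the stretches of the other 8 genes occurs, read in the same direction, in a transcript of another gene. Overlaps with genes on the opposite strand were not part of that search.

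Set against 6 h, the 24 h libraries split these genes evenly, much as they split all tested genes. In WT cells 4 were higher and 4 lower at 24 h than at 6 h, beside 36.9% and 35.4% of all genes, and in KO cells 4 and 4, beside 38.7% and 38.3%. Cryab, Bag1, Bag4 and Bag6 were the higher ones and Hspb8, Bag2, Bag3 and Bag5 the lower ones in each line. Bag2 fell by 0.77 (SE 0.043) in WT and by 1.17 (SE 0.047) in KO cells, and Bag3 fell more than Bag2 in WT cells and less in KO cells.

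**Figure D3:**
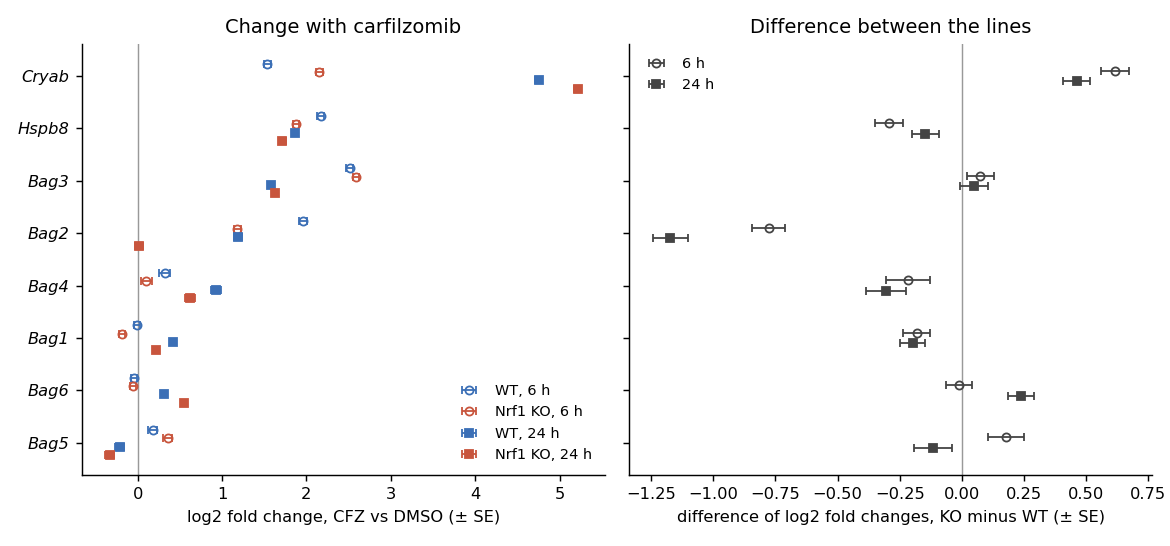
Left, log2 fold change of each tested gene with CFZ against DMSO (± SE) in WT (blue) and Nrf1 KO (red) cells at 6 h (circles) and 24 h (squares). Right, the KO minus WT difference of those fold changes (± SE) at 6 h and 24 h, which runs from -1.17 for Bag2 to 0.61 for Cryab and is 0.07 and 0.05 for Bag3.

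The second question was whether the lines respond alike, tested as the difference of the fold changes, KO minus WT. At 6 h, 1 of the 8 genes had a larger response in KO cells and 3 a smaller one, beside 19.8% and 18.4% of all genes. At 24 h the counts were 2 and 4, beside 29.7% and 30.0%. Cryab responded more in KO cells, by 0.61 (SE 0.056, adjusted p = 1.6e-10) at 6 h and 0.46 (SE 0.055, adjusted p = 1.4e-08) at 24 h. Bag2 responded less, by -0.78 (SE 0.066, adjusted p = 3.9e-11) and -1.17 (SE 0.070, adjusted p = 2.6e-15), and at 24 h 423 of the 11762 genes had a more negative difference. Hspb8 also responded less, by -0.29 (SE 0.055, adjusted p = 7.7e-05) at 6 h and -0.15 (SE 0.055, adjusted p = 0.022) at 24 h. The 24 h value of Hspb8 did not pass with upper-quartile scaling (-0.12, adjusted p = 0.071) or without WT DMSO replicate 2 (-0.13, adjusted p = 0.068), KO DMSO replicate 3 (-0.12, adjusted p = 0.076) or KO CFZ 24 h replicate 1 (-0.12, adjusted p = 0.057).

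For Bag3 the difference was 0.073 (SE 0.054, adjusted p = 0.31) at 6 h and 0.049 (SE 0.055, adjusted p = 0.46) at 24 h, so no difference was detected for the gene that rose most at 6 h. Bag1 differed by -0.18 (SE 0.053, adjusted p = 0.007) and -0.20 (SE 0.051, adjusted p = 0.0013). Bag4 differed by -0.31 (SE 0.081, adjusted p = 0.0017) at 24 h, and at 6 h its -0.22 (SE 0.090, adjusted p = 0.055) fell just short and passed with no expression filter (-0.24, adjusted p = 0.029) or the replicate block (-0.22, adjusted p = 0.038) and without WT CFZ 6 h replicate 1 (-0.29), WT CFZ 6 h replicate 3 (-0.26), KO DMSO replicate 3 (-0.29) or KO CFZ 6 h replicate 1 (-0.25). Bag6 responded more in KO cells at 24 h, by 0.24 (SE 0.052, adjusted p = 0.00024), and at 6 h its value was -0.012 (adjusted p = 0.89). Bag5 gave 0.18 (SE 0.073, adjusted p = 0.054) at 6 h and -0.12 (SE 0.076, adjusted p = 0.19) at 24 h. The 6 h value of Bag5 passed with upper-quartile scaling (0.21, adjusted p = 0.021) or library size alone (0.20, adjusted p = 0.036) and without KO DMSO replicate 3 (0.21) or KO CFZ 6 h replicate 2 (0.22), and its 24 h value passed with library size alone (-0.20, adjusted p = 0.03).

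In DMSO the lines differed little. Of the 8 genes, 2 were higher and 2 lower in KO cells, beside 25.7% and 29.1% of all genes. Bag2 was 1.34-fold higher (0.42, SE 0.051, adjusted p = 3e-08) and Bag1 1.11-fold lower (-0.15, SE 0.036, adjusted p = 0.0006). Cryab was higher by 0.11 (SE 0.040, adjusted p = 0.021), which did not pass without WT DMSO replicate 2 (0.089, adjusted p = 0.099) or KO DMSO replicate 3 (0.088, adjusted p = 0.11). Hspb8 was lower by 0.13 (log2 fold change -0.13, SE 0.041, adjusted p = 0.0085), which did not pass with library size alone (-0.083, adjusted p = 0.09) or without WT DMSO replicate 1 (-0.10, adjusted p = 0.083). Bag3, Bag4 and Bag6 gave 0.022, 0.017 and -0.050, none past the test, and Bag5 gave 0.11 (adjusted p = 0.06), which passed without WT DMSO replicate 3 (0.13, adjusted p = 0.049) or KO DMSO replicate 2 (0.13, adjusted p = 0.046), and with upper-quartile scaling (0.13), library size alone (0.16) or the compared groups only (0.13).

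Under CFZ more of the genes differed between the lines, as did more of all genes. At 6 h, 3 genes were higher and 4 lower in KO than in WT cells, beside 30.5% and 30.8% of all genes, and at 24 h 2 and 4, beside 35.6% and 36.4%. Cryab was 1.65-fold higher at 6 h (0.73, SE 0.038) and 1.49-fold higher at 24 h (0.57, SE 0.037). Bag2 turned from higher in DMSO to lower, by -0.36 (SE 0.042, adjusted p = 1.1e-08) at 6 h and -0.75 (SE 0.048, adjusted p = 3.7e-15) at 24 h. Hspb8 was lower by -0.42 (SE 0.037) and -0.28 (SE 0.037), and Bag1 by -0.34 (SE 0.039) and -0.35 (SE 0.036). At 6 h Bag3 was higher by 0.095 (SE 0.035, adjusted p = 0.02), a call lost with no expression filter (0.084, adjusted p = 0.052) or without WT CFZ 6 h replicate 2 (0.079), WT CFZ 6 h replicate 3 (0.074) or KO CFZ 6 h replicate 1 (0.082). Bag4 was lower at 6 h by -0.20 (SE 0.066, adjusted p = 0.0096), a call lost with library size alone (-0.13, adjusted p = 0.078) or without WT CFZ 6 h replicate 2 (-0.15) or KO CFZ 6 h replicate 2 (-0.15). At 24 h Bag3 gave 0.071 (adjusted p = 0.08), which passed with upper-quartile scaling (0.11, adjusted p = 0.0057), no expression filter (0.088, adjusted p = 0.042) or DESeq2 (0.084, adjusted p = 0.047) and without KO CFZ 24 h replicate 2 (0.11) or 3 (0.11), and Bag5 gave -0.0064 (adjusted p = 0.95). Bag6 was higher by 0.19 (SE 0.037, adjusted p = 3.9e-05) and Bag4 lower by -0.29 (SE 0.054, adjusted p = 1.7e-05) at 24 h, and Bag5 was higher by 0.29 (SE 0.053, adjusted p = 2.2e-05) at 6 h.

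To compare the genes with each other, levels were divided by the length of the annotated exons. In WT DMSO the order of CPM per kb was Cryab at 132.5 ± 3.44, Bag1 at 94.1 ± 1.45, Hspb8 at 55.5 ± 1.44, Bag6 at 45.7 ± 0.821, Bag3 at 35.3 ± 0.645, Bag5 at 12.9 ± 0.441, Bag2 at 10.9 ± 0.482 and Bag4 at 4.10 ± 0.061. Neighbours in this order were farther apart than their SDs. With the length of the longest transcript, however, Bag6 (73.7 CPM per kb) passed Hspb8 (59.6) and Bag2 (17.9) passed Bag5 (15.1). In WT CFZ 24 h Cryab stood at 3567 ± 28.6 and Hspb8 at 202 ± 1.89 CPM per kb, ahead of Bag1 at 125.4 ± 4.90, Bag3 at 106 ± 0.065 and Bag6 at 56.8 ± 0.817.

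Ratios within a library are free of the scaling between libraries, and these pairs of genes were chosen after their levels were seen. BAG1 and BAG3 compete for Hsp70 and are known to pass clients to the proteasome and to autophagy respectively. The ratio of Bag1 to Bag3 counts per kb was 2.57, 2.70 and 2.72 in the WT DMSO libraries and 2.37, 2.27 and 2.43 in the KO DMSO libraries. At 6 h of CFZ it was 0.459, 0.469 and 0.465 in WT and 0.339, 0.343 and 0.353 in KO cells, and at 24 h 1.13, 1.21 and 1.22 in WT and 0.806, 0.897 and 0.968 in KO cells. Bag1 thus went from the more to the less abundant transcript of the pair at 6 h in both lines, and at 24 h it was again above Bag3 in all 3 WT libraries and below it in all 3 KO libraries. The ratio of Bag3 to Hspb8 was 0.637 ± 0.012 in WT DMSO, 0.809 ± 0.011 at 6 h and 0.524 ± 0.0051 at 24 h. In KO cells it was 0.711 ± 0.044, 1.16 ± 0.072 and 0.669 ± 0.067. No test was run on these ratios.

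**Figure D4:**
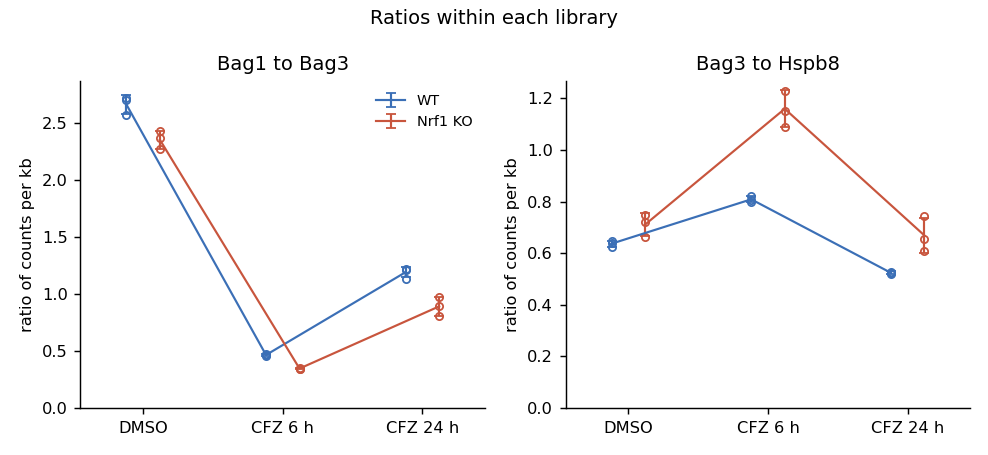
Ratio of counts per kb of exon within each library (open circles), with the group mean and SD, for Bag1 to Bag3 (left) and Bag3 to Hspb8 (right) in WT (blue) and Nrf1 KO (red) cells. Bag1 to Bag3 dropped from 2.66 to 0.464 in WT and from 2.35 to 0.345 in KO cells at 6 h, and Bag3 to Hspb8 peaked at 6 h at 0.809 in WT and 1.16 in KO cells.

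The profile of each gene over the 6 groups was compared as the root mean square difference of group means on the log2 scale. Each gene was centred on its own mean but not scaled. The distance thus reflects the size of the changes as well as their timing, and genes that change little come out close to each other. Among these genes Bag1 and Bag6 were closest (0.18), followed by Bag4 with Bag1 and with Bag6 (0.20 each), then Hspb8 and Bag3 (0.35). Cryab was between 1.6 and 2.2 from all the others. Over 10252 other genes whose mean count reached 50, the nearest to Hspb8 were Nkiras1 (0.13), Tnfrsf10b (0.16) and Dnajb4 (0.17), the last an Hsp40-type co-chaperone. The nearest to Bag3 were Chordc1 (0.16), a co-chaperone of Hsp90, Tnfrsf10b (0.24), a death receptor, and Dnaja1 (0.25), another Hsp40-type co-chaperone. The nearest to Bag2 were Nfkbia (0.22), Wdr1 (0.22) and Nfkbie (0.29), of which Nfkbia and Nfkbie encode inhibitors of NF-kB. The nearest to Cryab, Tnfrsf23 (0.56), Adamts4 (0.57) and Ier3 (0.59), were less close. These distances rest on 6 group means and are given as a description.

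Other genes of the same pathways are given by lists. Of 7 other small heat shock protein genes, Hspb6 and Hspb7 were tested, and both were called lower with CFZ in each line at each time. Hspb6 went from 7.25 ± 1.19 to 2.74 ± 0.274 CPM over 24 h in WT and from 10.1 ± 0.522 to 2.24 ± 0.419 CPM in KO cells (log2 fold changes -1.42 and -2.18). Its WT 6 h value of -0.32 did not pass without WT DMSO replicate 2 (-0.18), WT CFZ 6 h replicate 2 (-0.30) or WT CFZ 6 h replicate 3 (-0.27). Hspb7 was low throughout, at 0.743 ± 0.106 CPM in WT DMSO and at 0 in 2 of the 3 WT and all 3 KO libraries at 24 h, and its 6 h calls in both lines were lost with DESeq2 (adjusted p = 0.073 and 0.079). Those calls were also lost without WT DMSO replicate 3 (-0.96) or WT CFZ 6 h replicates 1 (-0.71) or 3 (-0.96), and without KO DMSO replicate 3 (-0.95) or KO CFZ 6 h replicates 1 (-0.92) or 2 (-1.15). Hspb7 passed the expression filter through its level in DMSO, so no direction of the family is read from it.

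All 18 heat shock factors and textbook targets outside these families were tested. In WT cells 18 were higher at 6 h and 17 at 24 h, beside 35.6% and 43.2% of all genes. In KO cells 18 were higher at each time, beside 34.5% and 44.4%. A rise of at least 2-fold was seen for 15 in each line at each time. The shares of all genes with such a rise were 3.98% and 10.5% in WT and 3.30% and 11.5% in KO cells. The median log2 fold changes of the list were 1.81 and 1.45 in WT and 2.05 and 1.64 in KO cells, beside medians near 0 for all genes. Hspa8, the constitutive Hsp70 of the cytosol, rose by 2.09 and 3.09 in WT and 2.13 and 3.59 in KO cells at 6 h and 24 h. Dnajb1, an Hsp40-type co-chaperone, rose by 3.32 and 2.06 and by 3.88 and 3.24. The inducible Hsp70 genes Hspa1a and Hspa1b, whose near-identical transcripts make the split of reads between them uncertain, rose by 1.53 and 1.55 in WT and by 3.41 and 3.43 in KO cells at 24 h. Hsf1, a heat shock factor, rose by 0.51 and 1.03 in WT and 0.35 and 0.61 in KO cells. Hsf2, another heat shock factor, went from 31.6 ± 1.95 CPM in WT DMSO to 107 ± 2.35 and 140 ± 2.92 CPM at 6 h and 24 h. In KO cells Hsf2 went from 29.7 ± 0.533 to 48.0 ± 1.45 and 90.4 ± 1.56 CPM. Fkbp4, a co-chaperone of Hsp90, was the 1 gene lower in WT cells at 24 h (-0.51), and its KO value of 0.10 (adjusted p = 0.012) turned to -0.083 with library size alone and was no longer called without KO DMSO replicate 3 (0.080) or KO CFZ 24 h replicate 2 (0.048) or 3 (0.048). Their response was larger in KO cells for 12 and smaller for 3 genes at 6 h, and for 12 and 4 at 24 h, beside 19.8% and 18.4% of all genes at 6 h and 29.7% and 30.0% at 24 h. Cryab was on the side of the 12 and Hspb8 on the other.

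All 11 partners of BAG3 and HSPB8 in chaperone-assisted selective autophagy were tested, and 7 were higher and 3 lower in WT cells at 6 h and 8 and 2 at 24 h. The shares of all genes called higher and lower were 35.6% and 36.2% at 6 h and 43.2% and 40.5% at 24 h. In KO cells 7 were higher and 3 lower at 6 h and 9 and 2 at 24 h, beside 34.5% and 35.0% and then 44.4% and 41.1% of all genes. The median log2 fold changes of the list were 0.53 and 0.83 in WT and 0.48 and 1.12 in KO cells. Sqstm1, the autophagy receptor p62, rose by 2.46 and 2.82 in WT and 1.89 and 2.73 in KO cells. Flnc, a filamin that BAG3 and HSPB8 help to turn over, rose by 1.07 and 2.78 and by 0.99 and 2.43. Stub1, the ubiquitin ligase CHIP that works with BAG2 and BAG3, fell by 0.42 and 0.82 in WT and by 0.46 and 1.03 in KO cells. Synpo, an actin-linked partner of BAG3, fell by 1.68 and 2.51 and by 1.67 and 2.57.

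All 7 genes of the BAG6 complex and of tail-anchored protein insertion were tested. In WT cells 5 were higher and 1 lower at 6 h and 5 and 2 at 24 h, and in KO cells 2 and 1 at 6 h and 4 and 2 at 24 h. Set against the shares of all genes given for the autophagy partners, the KO 6 h count of 2 of 7 higher and 1 of 7 lower was no larger. The median log2 fold changes were 0.13 and 0.38 in WT and 0.040 and 0.57 in KO cells. The WT 6 h calls of 6 genes became 3 with library size alone and 2 with upper-quartile scaling. Caml, a receptor for tail-anchored proteins in the endoplasmic reticulum, was at one end, with 1.29 and 1.61 in WT and 0.34 and 0.71 in KO cells. Its response was smaller in KO cells by -0.95 (SE 0.12, adjusted p = 1.1e-07) at 6 h and -0.90 (SE 0.11, adjusted p = 2.6e-08) at 24 h. Ubl4, a subunit of the BAG6 complex, was at the other, with -0.45 in WT and -0.65 in KO cells at 24 h.

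Of the BAG genes, 3 share a start region with a gene on the opposite strand. The start of Bag4 lies 1 base from that of Lsm1, which encodes an mRNA decay factor, the start of Bag5 4 bases from that of Apopt1, which encodes a mitochondrial protein, and the start of Bag1 113 bases from that of Chmp5, an ESCRT-III subunit, by the GENCODE M21 models. None of these pairs overlapped in their exons. Lsm1 changed by 0.27 and 0.93 in WT and by 0.070 and 0.58 in KO cells at 6 h and 24 h, next to 0.32 and 0.93 and 0.10 and 0.62 for Bag4. Apopt1 gave 0.0089 and -0.45 in WT and -0.20 and -0.77 in KO cells, and Bag5 0.18 and -0.21 in WT and 0.36 and -0.33 in KO cells, so at 6 h in KO cells this pair was called in opposite directions. The Apopt1 call at 6 h in KO cells was lost without KO DMSO replicate 3 (-0.16, adjusted p = 0.083). The WT 6 h call of Lsm1 was lost with library size alone (0.13, adjusted p = 0.07), and that of Chmp5 with library size alone (0.022), upper-quartile scaling (0.045) or without WT DMSO replicate 2 (0.12). Chmp5 gave 0.15 and 0.67 in WT and 0.069 and 0.54 in KO cells, and Bag1 -0.0050 and 0.42 and -0.19 and 0.22.

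**Figure D5:**
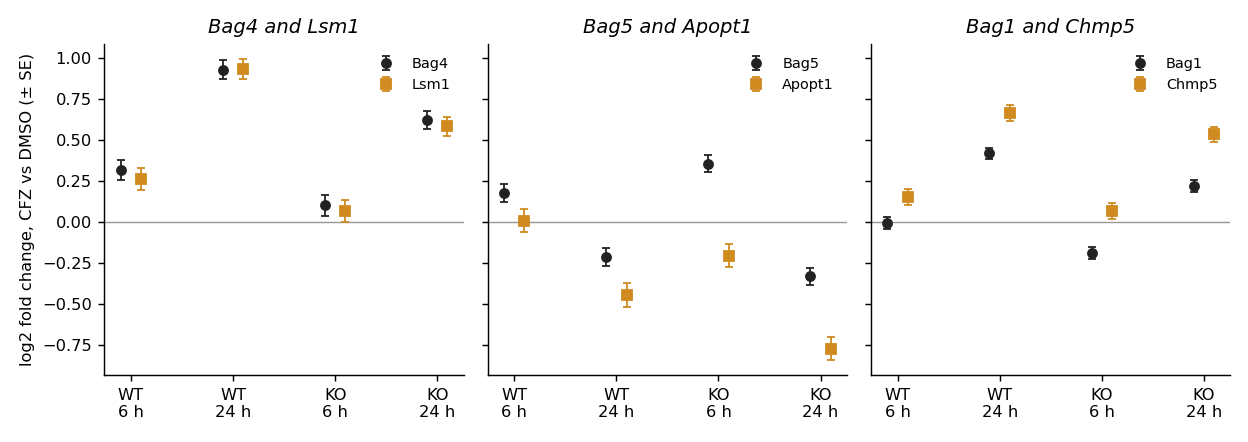
Log2 fold change with CFZ against DMSO (± SE) of Bag4, Bag5 and Bag1 (black circles) and of the gene that starts next to each on the opposite strand, Lsm1, Apopt1 and Chmp5 (orange squares). Bag4 and Lsm1 lie within their SEs of each other in all 4 comparisons, whereas Apopt1 was below Bag5 and Chmp5 above Bag1 in each.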

How the data were processed

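Per the labels and the study's methods, RNA was extracted from NIH-3T3 cells, made into libraries with a stranded mRNA kit, sequenced as paired reads, and aligned with STAR in an app that also runs DESeq2. The authors deposited raw counts per gene symbol for 18 libraries in 1 table. The genome build, the annotation and the use of strand in counting are not given in the sources used here. Of 23420 rows, 6577 held no count, and 4 rows of repeated date-like symbols were kept under distinct names.

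The members and the gene lists were chosen with earlier results of these data known. Groups came from the labels. Genes passing filterByExpr (minimum count 10, minimum total 15) were fitted in edgeR 4.0.16 under R 4.3.3 with TMM scaling, 1 mean per group over the 18 libraries and the quasi-likelihood test, and p-values were adjusted by the Benjamini-Hochberg method over 11762 genes. SEs are the size of the log2 fold change divided by the square root of F. The common biological coefficient of variation was 3.13%. Counts of replicates differed by more than sampling noise in each of the 18 replicate pairs (chi-square per degree of freedom 1.438 to 8.469). The fits were tested on simulated data. Totals of 8333148 to 23917081 counts limit the precision of low genes, and a count of 0 was read as up to 3 counts, for counting error only. Alternatives were DESeq2 1.42.0, upper-quartile scaling, library size alone, no filter, a fit of the compared groups only, a block for replicate number, the removal of 1 library at a time, a minimum fold of 2, and lengths of the longest transcript. Gene models are from GENCODE M21 on GRCm38, promoter windows from RefSeq on GRCm38.p6. The genes named were all members, Nfe2l1, the 3 genes most like each member that spanned at least 1 on the log2 scale, the ends of each list in WT cells at 24 h with the best known partners, and annotated neighbours with overlapping exons or with starts within 1000 bases on the other strand.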

Additional observations from a re-analysis of the deposited data

Results flagged for a closer look

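For 10 results the test of the difference between the lines passed, with the KO response minus the WT response on the log2 scale. Over all genes tested, 19.8% passed with a larger and 18.4% with a smaller response in KO cells at 6 h. The shares at 24 h were 29.7% and 30.0%. At 6 h the difference was 0.615 for Cryab, -0.292 for Hspb8, -0.182 for Bag1 and -0.778 for Bag2. At 24 h it was 0.462 for Cryab, -0.147 for Hspb8, -0.198 for Bag1, -1.17 for Bag2, -0.306 for Bag4 and 0.236 for Bag6. The small heat shock genes Cryab and Hspb8 thus differed between the lines in opposite directions at both times, and Bag6 was the one BAG gene whose difference passed with the larger response in KO cells, at 24 h. The Hspb8 difference at 24 h did not pass with upper-quartile scaling (-0.119, adjusted p = 0.071) or with some single libraries left out.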

How the results depend on the processing

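Under the alternatives the number of these genes called stayed within 1.5 times the main count, except under a minimum fold of 2. That left 4 in WT and 3 in KO cells at 24 h against DMSO, 1 and 2 at 24 h against 6 h, 0 in each comparison of KO with WT cells, and 0 at 6 h and 1 at 24 h for the difference of responses. Of the member fold changes under the other settings, 490 kept their direction and side of the threshold, 13 changed sign, 18 newly passed and 7 no longer passed. With a library left out the counts were 585, 17, 11 and 11. None of the member values that changed sign had passed the test, whereas Fkbp4 in KO cells at 24 h had. The cause was not tested. With library size alone these were Bag4 in KO cells at 6 h (-0.010), Bag2 in KO cells at 24 h (-0.17), Bag6 in KO against WT cells at 6 h (0.0047), the Bag6 difference of responses at 6 h (0.0081), the Bag3 one at 24 h (-0.028), Apopt1 in WT cells (-0.12), Chmp5 (-0.044) and Lsm1 (-0.043) in KO cells at 6 h, and Fkbp4 in KO cells at 24 h (-0.083). With upper-quartile scaling they were Bag2 in KO cells at 24 h (-0.093), Bag5 in KO against WT cells at 24 h (0.036), the Bag6 difference at 6 h (0.022), Apopt1 (-0.10), Chmp5 (-0.0055), Lsm1 (-0.0043) and Fkbp4 (-0.0093). Without the filter Bag2 (-0.034), Bag5 (0.012) and Apopt1 (-0.019) turned, with the compared groups only Bag2 (-0.020) and Bag5 (0.0076), and with DESeq2 Bag5 (0.0061) and Apopt1 (-0.013).

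With libraries left out in turn, the values ran from -0.0096 to 0.014 for Bag1 in WT cells at 6 h, from -0.028 to 0.056 for Bag2 in KO cells at 24 h, from -0.0022 to 0.056 for Bag3 and -0.031 to 0.095 for Bag4 in KO against WT cells in DMSO, from -0.040 to 0.031 for Bag5 in KO against WT cells at 24 h, from -0.062 to 0.022 for the Bag6 difference of responses at 6 h, and from -0.059 to 0.079 for Apopt1 in WT cells at 6 h.

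Libraries of the same number showed no common deviation (correlation 0.0136 on average, range -0.0494 to 0.0972 over 45 pairs), so the numbers were not taken to pair the samples. The replicate block moved 1 member across the threshold, Bag4 in the difference of responses at 6 h (-0.224, adjusted p = 0.038), and called 4650 genes there against 4502 without it. Hspb1, with 9 counts in all, did not pass the expression filter, and the cause of its low count was not tested.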
